A study of Mus musculus with 4 samples.

Results

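The neural progenitors of day 11 gastruloids were chosen by their measured UMIs of 9 genes, as cells that held Sox2 together with Hes5 or Fabp7 and few neuronal transcripts. A cell was counted when it held at least 2000 UMIs (unique molecular identifiers, each standing for 1 captured transcript) and under 20% mitochondrial UMIs, Sox2 at 1 or more UMIs, Hes5 plus Fabp7 at 3 or more UMIs, fewer than 3 of the 4 neuron genes Elavl3, Ina, Stmn2 and Dcx, no Sox10 and under 2 UMIs of Atoh1. This left 656 of the 8730 day 11 cells that passed the depth and mitochondrial limits, or 7.51% (exact Clopper-Pearson 95% interval 6.97 to 8.09%), out of 29190 such cells in the whole series. The series holds 1 library each of gastruloids at days 4, 5, 6 and 11, aggregates of wild type mouse embryonic stem cells of the Zx1 line that were given a pulse of a Wnt agonist, then bFGF, VEGF and ascorbic acid, and were grown on in N2B27 medium. Each library pooled at least 8 gastruloids, so cells cannot be traced to a gastruloid, and with 1 library a day no difference has a replicate check and none was tested. All intervals are exact, at the 95% level, and cover counting error only. The progenitors held a median of 14910.5 UMIs and 3789.5 genes, against 11919.5 UMIs in the 8074 other day 11 cells.

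Neural progenitors line the inner face of the neural tube, divide there, and keep from becoming neurons through Notch signalling. A cell that starts to differentiate raises a proneural factor and the ligand Dll1, which activates Notch in its neighbours, and these in turn make Hes factors that repress the proneural genes. Across the dorsoventral axis of the tube, Bmp and Wnt signals from the roof plate and Shh from the floor plate set domains of transcription factors, and along its length Hox genes mark the level from hindbrain to tail. The culture was designed for heart and head muscle, and the neural cells stand beside them in the same library.

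The rule genes are given as a description, since they chose the cells. Sox2 (SRY-box factor of neural progenitors, chr3:34650405-34652461 in mm10) stood at 446 CPM (UMIs of the gene in each 1000000 UMIs, summed over the cells), with a median of 7 UMIs a cell, and was at 1 UMI in 9.15% of the cells. Fabp7, the brain fatty acid binding protein of radial glia, stood at 2281 CPM with a median of 33 UMIs a cell, and Hes5, a Notch target that represses proneural genes, at 410 CPM with a median of 4 UMIs. Both Hes5 and Fabp7 were found in 490 of the 656 cells, Fabp7 without Hes5 in 164 (25%) and Hes5 without Fabp7 in 2. At the Sox2 limit, the 60 progenitors with 1 UMI of Sox2 held 152 CPM of Pax3 and 122 CPM of Hes5, while the 146 cells that met the rest of the rule with no Sox2 UMI held 16.1 and 17 CPM. At the Hes5 plus Fabp7 limit, 15 progenitors held exactly 3 UMIs and 18 cells outside held 2, with Pax3 at 180 and 83.7 CPM. At the neuron limit, 42 progenitors held 2 of the 4 neuron genes and 9 cells outside held 3, with Tubb3, a neuronal tubulin, at 237 and 749 CPM.

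Some of the cells carried transcripts of other cell types. Of the 656 progenitors, 43 also passed a cardiomyocyte gate (Myl7, atrial myosin light chain, at 20 or more UMIs and Tnnt2, cardiac troponin T, at 5 or more). These 43 cells had a median of 48113 UMIs and supplied 16.7% of all UMIs of the progenitors, and 37 of them lay among the 8% of day 11 cells with the highest Scrublet doublet scores. All 12 cardiomyocyte genes were found, and their summed level was 4789 CPM in all progenitors and 183 CPM without the 43 cells, against 16246 CPM in the other cells and 6113 CPM in the neuron gate. All 12 were at least 2 times lower than in the other cells, on the scale of CPM plus 10 used below for such counts. Endothelial genes summed to 107 CPM with none of the 10 at 0, against 430 CPM in the other cells, and 13 mesenchyme genes, of which Thy1 was at 0, to 318 against 1380 CPM. Afp, a yolk sac and liver protein, was found in 11 progenitors, and 3 of these held 1193 of its 1204 UMIs. The part of these transcripts in the results was not tested, and values without the 43 cells are given for part of the statements. Counts given without such values can also change when these cells are left out. The day 11 library shared 18, 23 and 16 barcodes with those of days 4, 5 and 6, of which 3, 0 and 1 belonged to progenitors.

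Genes outside the rule also set these cells apart. Of 8909 genes with at least 10 CPM in either set, 343 (3.85%) were at least 2 times higher in the progenitors than in the other day 11 cells and 481 (5.4%) at least 2 times lower, counted on the ratio of CPM plus 10. Without the 43 cells the counts were 440 and 721. Among 27 genes of neural progenitor identity that could be compared, 19 were higher and 0 lower, with a median ratio of 2.53 against 1.01 over all genes. Sox3, a close relative of Sox2 with much the same role, stood at 57.3 CPM against 1.32 CPM in the other cells, a ratio of 43.4 (36.8 to 51.3), and Sox1 at 12.1 against 0.148 CPM. Pax6, a factor of intermediate and dorsal progenitors, stood at 48.3 against 2.59 CPM, the intermediate filament nestin (Nes) at 196 against 56 CPM, and the RNA binding protein gene Msi1 at 66 against 8.53 CPM. Nestin was found in 83.8% of the progenitors, and after each cell was thinned to 5000 UMIs in 55.3% of them, against 15.4% of the other cells and 12.4% of the cardiomyocyte gate, whose median depth was 19967 UMIs. The glial-lineage membrane genes Ttyh1 and Ptprz1 stood at 44.2 and 54.5 CPM against 3.53 and 3.7 CPM. The genes that did not pass the 2-fold limit included Vim at 2499 against 1513 CPM, Cdh2 (N-cadherin) at 147 against 98.4 CPM and Hes1 at 74.3 CPM in both, genes known from mesenchymal or cardiac cells as well. The neural progenitor markers that the rule did not use thus matched the label.

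Among genes at 100 CPM or more in the progenitors, ranked by the ratio of CPM plus 10, the 15 leading genes included factors of the dorsal neural tube and of neural progenitors. Pax3, a paired-box factor of the dorsal tube (chr1:78101267-78197134, minus strand), stood at 272 against 5.65 CPM, a ratio of 48.1 (44.5 to 52.1), with a median of 4 UMIs a cell and up to 81. It was found in 86.4% of the progenitors, and after thinning in 67.8% of them, 1.61% of the other cells and 0.191% of the cardiomyocyte gate. Msx3, a homeobox factor of the dorsal tube (chr7:140046157-140049089, minus strand), stood at 204 against 3.37 CPM. Rfx4, a factor needed for the roof of the brain and for cilia (chr10:84756062-84906538), reached 174 against 3.52 CPM. Zic1, a zinc finger factor of the dorsal tube, stood at 195 against 11.3 CPM. The non-coding RNA Pantr1, next to the neural factor gene Pou3f3, stood at 470 against 19.7 CPM, and Pou3f2, its relative, at 142 against 14.6 CPM. Ccnd1, cyclin D1 of the G1 phase, stood at 488 against 71.2 CPM, the creatine kinase gene Ckb at 1891 against 309 CPM, the secreted Metrn at 249 against 32.4 CPM, and ezrin (Ezr), of the apical membrane, at 234 against 31.6 CPM. C130071C03Rik, Phyhipl, Fam181b and Fez1 were also among the 15 leading genes. Not all of these were particular to the progenitors, since Pou3f2 stood at 131 CPM in the neuron gate. The Atoh1 gate held 102 cells chosen on Atoh1, a proneural factor of the dorsal-most interneurons. Pou3f2 stood at 359 CPM in it, and the other leading genes were lower than in the progenitors. Among these, Pantr1, Ckb, Rfx4 and Pax3 stood at 332, 1424, 115 and 54.5 CPM. The 15 at the other end were mostly genes of connective tissue and heart muscle, among them Col3a1 at 82.9 against 419 CPM, Lgals1 at 209 against 887 CPM, and Col1a1, Col1a2, Vcan, Mfap4, Ttn, Myh6, Tnnt2, Tpm2, Ramp2, Itm2a and Gucy1a1. They also held Crabp1, a retinoic acid binding protein that is abundant in young neurons, at 58.5 against 340 CPM, and the imprinted RNA Meg3 at 227 against 945 CPM.

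**Figure D1:**
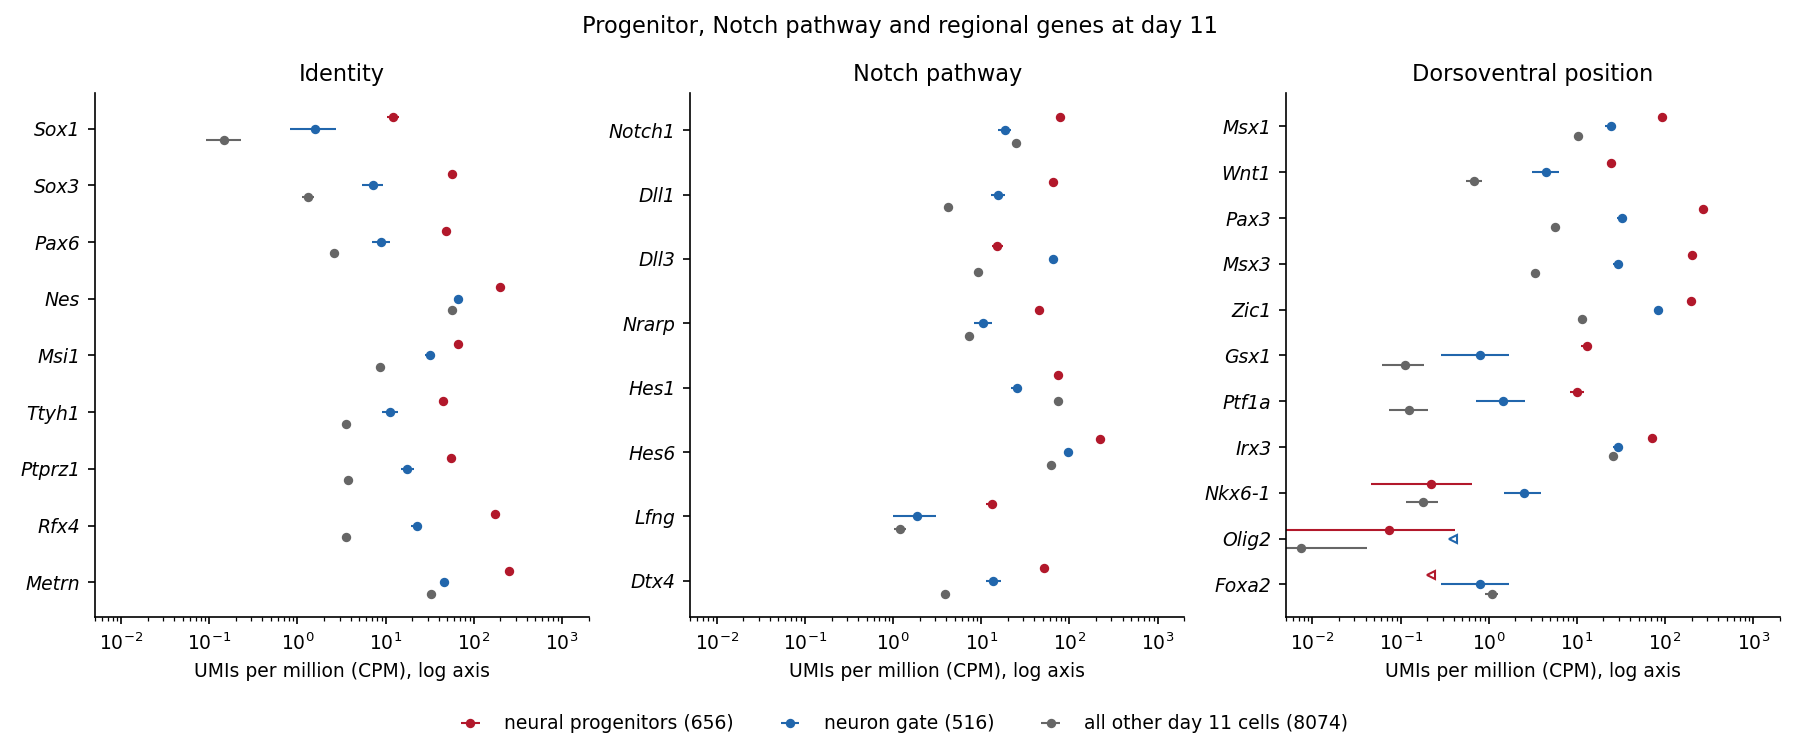
Levels in CPM (log axis) of genes of progenitor identity, of the Notch pathway and of dorsoventral position in the progenitors (red, 656 cells), the neuron gate (blue, 516 cells) and all other day 11 cells (grey, 8074 cells), each in 1 library. Bars are exact 95% Poisson intervals and open triangles mark sets with no UMI, at the level of 3 UMIs. Sox3, Pax3 and Msx3 lie far to the right in the progenitors, Hes1 lies at 74.3 CPM in the progenitors and in the other cells, and Nkx6-1, Olig2 and Foxa2 lie under 1 CPM in the progenitors.

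Dorsal and intermediate genes were found and ventral ones were almost absent. Of 10 dorsal genes compared, 8 were at least 2 times higher than in the other cells and 0 lower (median ratio 4.13), namely Pax3, Pax7, Msx1, Wnt1, Zic1, Zic2, Zic5 and Rspo1. Msx1, a homeobox target of Bmp at the dorsal midline, stood at 91.2 against 10.2 CPM, Pax7 at 27.2 against 5.08 CPM, and Wnt1, a roof plate ligand (chr15:98789857-98793837), at 24.6 against 0.683 CPM. In the Atoh1 gate Msx1, Zic2, Zic5 and Wnt1 were near-equal, at 105, 78.7, 92.5 and 22.6 CPM against 91.2, 68, 80.1 and 24.6 CPM. Pax3, Pax7, Zic1 and Rspo1 were lower in that gate than in the progenitors, at 54.5, 15.4, 80.4 and 11 CPM. All 5 intermediate genes compared were higher. Gsx1, a homeobox factor of dorsal interneuron progenitors, stood at 13 against 0.111 CPM, and Prdm13, which acts beside Ptf1a in the choice of inhibitory fate, at 27.8 against 0.994 CPM. The intermediate factors Irx3 and Irx5 were at 71.3 and 77.7 CPM against 25.8 and 22 CPM. Of the 14 ventral genes, Ptch1 alone reached 10 CPM in either set, and it was not called. Nkx6-1, Olig2 and Dbx1, factors of the ventral tube and of the middle domain, stood at 0.222, 0.074 and 0.74 CPM. Shh, Foxa2 and Nkx2-2 had no UMI in the progenitors, which allows up to 0.222 CPM at 3 UMIs, and a summed list of 6 ventral factors reached 2 UMIs in 0 of 640 thinned progenitors (upper limit 0.575%). Gdf7, a roof plate ligand, was near the floor at 0.37 CPM, and Lmx1a, the roof plate factor, stood at 4.59 CPM.

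Hox genes were found in nearly all progenitors, up to paralog 10. At 2 or more UMIs summed over 39 Hox genes, 97.3% of 640 progenitors thinned to 5000 UMIs were positive (95.8 to 98.4%), against 51.4% of the other cells, 99% of the neuron gate and 11.4% of the cardiomyocyte gate. Unthinned, 99.5% of the progenitors, 70.2% of the other cells and 35.5% of the cardiomyocyte gate were positive. Without the 43 cells in the cardiomyocyte gate the thinned share was 99%. Summed, the Hox genes reached 1690 CPM in the progenitors, 567 CPM in the other cells and 3157 CPM in the neuron gate. Of 14 genes of paralogs 5 to 9 compared, 7 were at least 2 times higher than in the other cells and 0 lower (median ratio 1.98). Without the 43 cells 9 were higher. Hoxc9 (chr15:102976439-102985099) stood at 188 against 44.6 CPM, Hoxb9 at 175 against 39.5 CPM and Hoxc6 at 143 against 33.8 CPM. Hoxc10 (chr15:102966796-102971893), of the lumbar level in the embryo, stood at 189 against 35.2 CPM, and Hoxa10 at 28.7 against 12.5 CPM. Hoxd10 was found at 0.222 CPM and the 9 genes of paralogs 11 to 13 in sum reached 2 UMIs in 0 of 640 thinned progenitors. Genes of the front of the neural tube were at the other extreme. Otx2, a factor of the forebrain and midbrain, had no UMI, and Otx1 plus Otx2 reached 2 UMIs in 0 of 640 thinned progenitors (upper limit 0.575%). A planned comparison of cells with Hox against cells with Otx transcripts therefore had no cells on the Otx side. En1, which also marks an interneuron class and the midbrain border, was at 28.3 against 12.5 CPM, and the Hox genes of the hindbrain list included Hoxa2 at 46.8 against 14.5 CPM and Hoxd4, with 5 of 10 compared genes of that list higher.

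**Figure D2:**
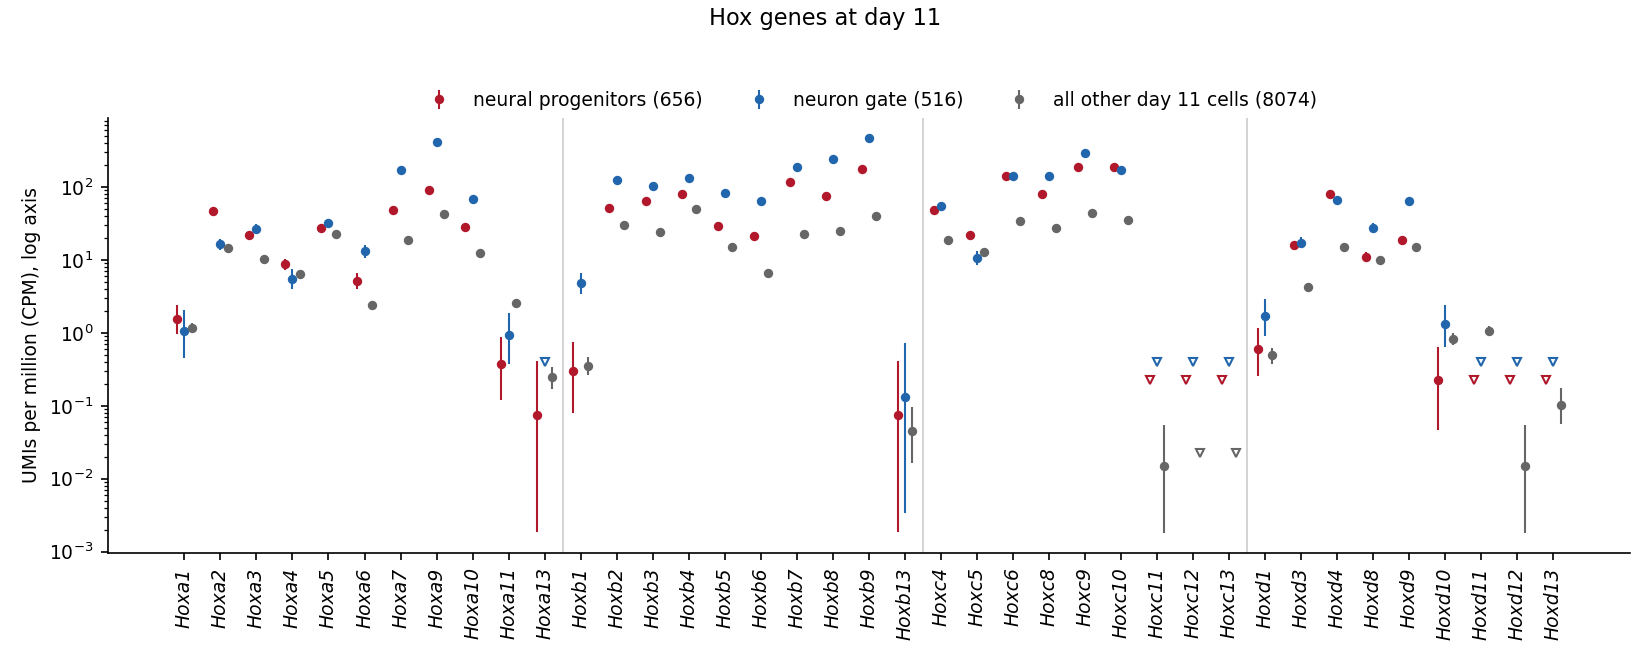
Levels of 39 Hox genes in CPM (log axis) in the progenitors (red, 656 cells), the neuron gate (blue, 516 cells) and all other day 11 cells (grey, 8074 cells), in cluster order with grey lines between clusters; bars are exact 95% Poisson intervals and open triangles mark sets with no UMI, at the level of 3 UMIs. Sets are to be compared within a gene: Hoxc10 lay at 189 CPM in the progenitors and 174 CPM in the neuron gate, Hoxa9 at 91.5 and 418 CPM, and Hoxd10 at 0.222 CPM in the progenitors.

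Genes of the Notch pathway were found from ligand to target. Of the ligands, Dll1 (chr17:15367354-15376872, minus strand) stood at 65.6 CPM against 4.24 CPM in the other cells, a ratio of 15.5 (13.9 to 17.2), and was found in 38.3% of the progenitors, with up to 30 UMIs in a cell. Dll3, a ligand that limits Notch from within the cell, stood at 15.2 CPM, against 65 CPM in the neuron gate and 175 CPM in the Atoh1 gate. Jag1 was at 9.47 against 8.58 CPM in the other cells. Of 3 receptors compared, Notch1 was the one called, at 77.9 against 24.8 CPM. Of 8 compared genes of the Notch target list, which left out Hes5, 5 were at least 2 times higher and 0 lower. These were Hes6, Nrarp, Id1, Id3 and Id4, of which Id1 and Id3 are also named below as Bmp targets. Hes1 was not called, at 74.3 CPM in both sets. Nrarp, a feedback inhibitor made on Notch activation, stood at 45.7 against 7.33 CPM, and Hes6, which counters Hes1 and promotes differentiation, at 221 against 61.5 CPM. Among 11 modulators, Dtx4 (a ubiquitin ligase) at 50.8 against 3.93 CPM and Lfng (a glycosyltransferase that alters receptor choice) at 13.2 against 1.19 CPM were called. Rbpj, the DNA-binding partner of the cleaved receptor, differed little, at 88.1 against 74.1 CPM.

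The start regions of the 2 genes that chose the cells by a sum, Hes5 and Fabp7, are shown because Rbpj binds the letters TGGGAA at Notch targets. Both windows run from 250 bases before to 50 bases after the RefSeq start on the plus strand of GRCm38.p6, Hes5 at chr4:154960673-154960972 and Fabp7 at chr10:57784673-57784972, and capitals mark TGGGAA or its reverse complement TTCCCA.
Hes5: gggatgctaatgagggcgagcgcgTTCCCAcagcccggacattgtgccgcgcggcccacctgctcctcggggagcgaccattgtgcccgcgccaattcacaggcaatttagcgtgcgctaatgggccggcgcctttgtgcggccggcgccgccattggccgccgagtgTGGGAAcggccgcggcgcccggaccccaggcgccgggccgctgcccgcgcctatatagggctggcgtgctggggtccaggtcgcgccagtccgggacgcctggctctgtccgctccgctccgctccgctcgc
Fabp7: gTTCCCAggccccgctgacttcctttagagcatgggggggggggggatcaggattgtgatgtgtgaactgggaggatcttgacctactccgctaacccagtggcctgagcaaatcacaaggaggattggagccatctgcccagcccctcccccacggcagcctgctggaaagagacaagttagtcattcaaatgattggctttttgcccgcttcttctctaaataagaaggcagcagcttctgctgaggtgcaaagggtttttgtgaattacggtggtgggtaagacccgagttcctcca
Hes5 held 2 matches, which began 226 and 82 bases before the start, and Fabp7 held 1, which began 249 bases before it. Of 32851 promoter windows of the same length, 25.6% held at least 1 match on either strand and 3.79% held 2 or more, so a single match is common, and a match is a description of letters and not of binding. Of 13 listed genes looked up, 7 had a window in the table, and of the others Lfng held 2 matches and Hes6, Nrarp, Dll1 and Notch1 held 0.

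Proneural factors were found in different shares of the progenitors. Neurog2 was found in 13.1% of the cells, Neurog1 in 11.4%, the bHLH factor Olig3 of the dorsal-most domains in 9.6% and Ptf1a, which turns dorsal progenitors to inhibitory neurons, in 9.3%. After thinning the shares of Neurog2, Neurog1, Olig3 and Ptf1a were 9.22, 5.94, 4.53 and 4.22%, and in the cardiomyocyte gate each was at most 0.191%. Of 9 proneural genes compared, 4 were at least 2 times higher than in the other cells and 0 lower. Neurog2 stood at 30.6 against 3.55 CPM, Neurog1 at 21.9 against 1.17 CPM and Gadd45g, a gene of cells leaving the cycle, at 126 against 42.2 CPM. Nhlh2, a bHLH factor of newborn neurons, stood at 8.88 CPM against 23.2 CPM in the other cells and 328 CPM in the neuron gate.

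The number of the 4 neuron genes found, which the rule held under 3, was set beside the levels of other genes within the progenitors, with no test. None was found in 368 cells, 1 in 246 and 2 in 42. Dll1 stood at 43.8, 83.6 and 102 CPM in these cells, Neurog2 at 9.78, 49.6 and 57.1 CPM, and Nhlh2 at 0.903, 12.5 and 36.6 CPM. Tubb3, a neuronal tubulin that the rule did not use, went from 49.3 to 156 and 237 CPM, and Gadd45g from 77.3 to 165 and 215 CPM. Rtn1, another gene of the neuron list outside the rule, did not rise, at 93, 80.8 and 77.5 CPM. Msx3 was highest in the cells with 1 neuron gene, at 251 CPM. The proliferation gene Mki67 stood at 218, 254 and 152 CPM. Median depth was 13898, 17024.5 and 16775 UMIs in the 3 sets, and a deeper cell has a larger chance to show a neuron gene. Myl7, of cardiomyocytes, stood at 1546, 1089 and 3975 CPM in them, and its part in these levels was not tested.

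**Figure D3:**
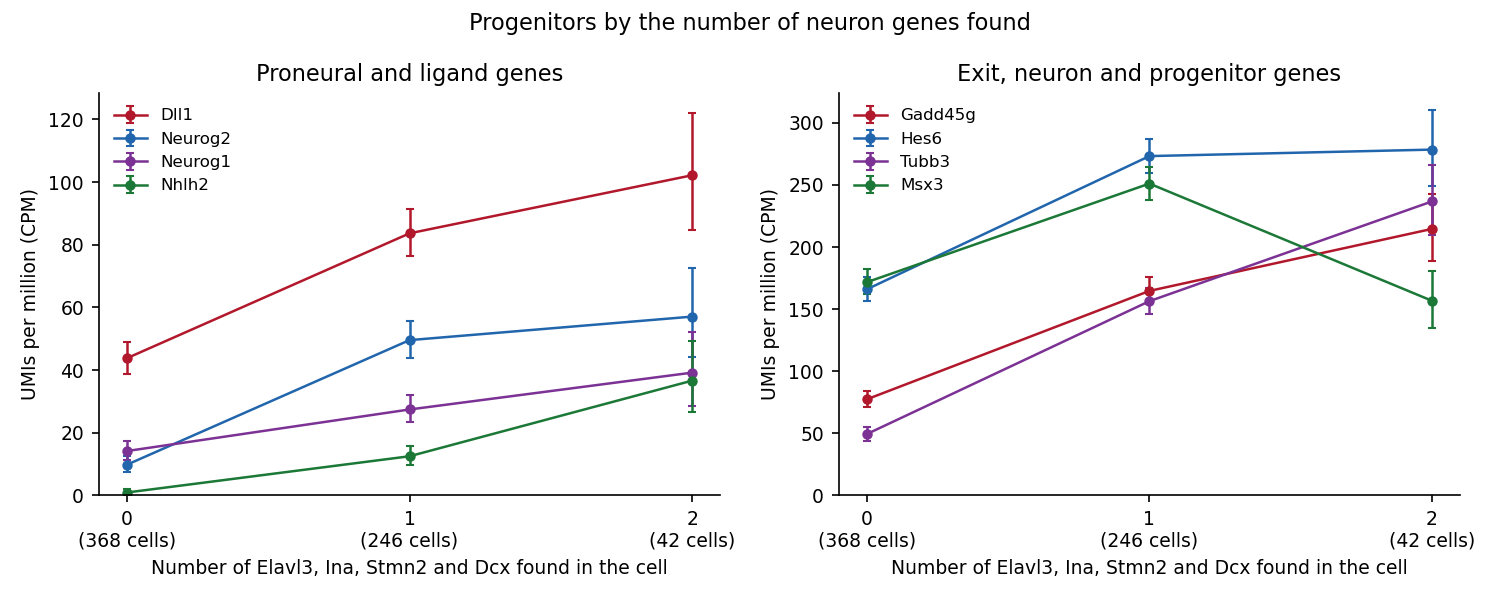
Levels in CPM (linear axis) among the progenitors by the number of Elavl3, Ina, Stmn2 and Dcx found in the cell, 0 (368 cells), 1 (246 cells) or 2 (42 cells), with exact 95% Poisson intervals as bars. Dll1, Neurog2, Nhlh2, Gadd45g and Tubb3 stand higher with each step, Tubb3 from 49.3 to 237 CPM, while Msx3 is highest at 1 neuron gene, at 251 CPM. For Dll1 and Neurog2 the intervals at 1 and 2 neuron genes overlap. In the same cells Rtn1, of the neuron list, stood at 93, 80.8 and 77.5 CPM. Myl7, not drawn, stood at 1546, 1089 and 3975 CPM.

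Cell cycle genes were high. At 2 or more UMIs of 41 genes of the G2 and M phases, 83.4% of thinned progenitors were positive (80.3 to 86.2%), against 56.5% of the other cells (55.4 to 57.6%), 69.4% of an endothelium gate of 527 cells (median 19151 UMIs), 42.8% of the cardiomyocyte gate and 33% of the neuron gate (28.9 to 37.3%). Unthinned, the shares were 93% in the progenitors, 82.4% in the other cells and 60.5% in the neuron gate. Without the 43 cells the thinned share was 83.4%. Of 40 genes of this list compared, 29 were at least 2 times higher than in the other cells and 0 lower (median ratio 2.09), and so were 10 of 38 S phase genes with 0 lower (1.72). With the 43 cells left out, 34 and 15 were higher. Mki67, the common marker of dividing cells, stood at 227 against 102 CPM, and Top2a, the topoisomerase of dividing cells, at 457 against 215 CPM. The centromere protein gene Cenpf stood at 590 against 165 CPM. Cdkn1c, an inhibitor of the cell cycle, went the other way, at 1162 against 1868 CPM in the other cells and 2347 CPM in the neuron gate.

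Single genes of the Wnt, Fgf and Bmp pathways were higher in the progenitors. Of 15 Wnt genes compared, 7 were at least 2 times higher than in the other cells and 2 lower. Wnt7b and Wnt3, ligands of the neural tube, stood at 29.3 and 26.1 CPM against 0.497 and 0.705 CPM, Wnt4 at 180 against 38.2 CPM, and the receptor gene Fzd10 at 78 against 3.4 CPM. The Wnt inhibitor Sfrp1 and the ligand Wnt5a were the 2 lower genes. Of 9 Fgf genes compared, 3 were higher, namely the ligand Fgf15 at 29.8 against 0.549 CPM, the receptor gene Fgfr2 at 41.1 against 9.29 CPM and the carrier Fgfbp3 at 73.8 against 8.33 CPM. Of 15 Bmp and Tgf genes, 4 were higher and 4 lower, with the receptor gene Bmpr1b at 33.2 against 2.19 CPM, the targets Id1 and Id3 at 341 and 904 CPM against 154 and 319 CPM, and the ligand Bmp4 at 7.25 against 35 CPM. Without the 43 cells Bmp4 stood at 2.49 CPM, and 5 of the 15 genes were higher and 5 lower. Of 9 retinoic acid genes, Crabp2 was higher, at 216 against 71.3 CPM, and Crabp1 and the receptor gene Rarg lower.

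Glial genes were mixed. Of the 28 listed, 17 stood at 10 CPM or more in the progenitors, and the 28 summed to 2120 CPM against 2092 CPM in the other cells. Id3, also counted above as a Bmp target, gave 904 CPM of the sum in the progenitors. In the other cells no gene of the list gave more than 389 CPM, so the near-equal sums do not hold for the list without Id3. Of 19 glial and gliogenic genes compared, 3 were higher than in the other cells (Sox9, Slc1a2 and Id3) and 4 lower, or 7 lower without the 43 cells of the cardiomyocyte gate. Sox9, which makes progenitors competent for glia, stood at 121 against 27.6 CPM, while the gliogenic factors Nfia and Nfib stood at 90.4 and 130 CPM against 109 and 246 CPM. Among genes of later glia, Apoe, a lipid carrier, stood at 117 against 389 CPM, Sparcl1 at 72.2 against 208 CPM, and the enzyme gene Aldoc at 54.5 against 68.8 CPM. Ednrb, an endothelin receptor, stood at 94.1 against 53.1 CPM and Gja1, a gap junction protein, at 65.7 against 39.8 CPM. Against the neuron gate, 5 of 17 glial genes were higher in the progenitors and 1 lower, with Ednrb at 17.6 CPM and Gja1 at 17.1 CPM in the neurons. Gfap, the astrocyte filament, had no UMI (up to 0.222 CPM), and Aldh1l1, an astrocyte enzyme, stood at 4.51 against 0.727 CPM. Sox9 was also the 1 called gene of 7 compared on the neural crest list, with Ets1 and Snai2 lower, and no gene of the pluripotency list reached 10 CPM in either set.

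The remaining lists were described by the same counts against the other cells. Of 16 genes of adhesion and apical polarity, 2 were higher and 0 lower, namely Prom1, of apical membranes, at 23.5 against 5.98 CPM and Celsr2, a cadherin of planar polarity, at 68.8 against 8.49 CPM. Of 10 genes of cell cycle exit and G1, 3 were higher and 0 lower, namely Gadd45g, Ccnd1 and Ccnd2, the last at 613 against 293 CPM. Of 4 midbrain and isthmus genes, Wnt1 and Gbx2 were higher, the latter at 29.5 against 1.37 CPM. Of 13 genes of hypoxia and stress, 0 were higher and 3 lower (5 lower without the 43 cells), the 3 being the immediate early genes Fos, Jun and Egr1, with Fos at 58 against 234 CPM. Of 5 interferon response genes, 4 were lower (3 without the 43 cells), among them Ifitm3 at 93.6 against 200 CPM. Of 15 neuron genes outside the rule, 0 were higher and 5 lower. The rule held neuron genes down in the progenitors and the other cells included the neuron gate, so this count carries no weight of its own.

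The progenitors were next compared with neurons of the same library. The neuron gate held 516 cells with 3 or 4 of the 4 neuron genes, no Sox10 and under 2 UMIs of Atoh1, at a median of 10120 UMIs. Of these 516 cells, 28 also passed the cardiomyocyte gate and supplied 15.2% of their UMIs, and 79 lay among the top 8% of doublet scores. Of 9027 genes compared, 353 (3.91%) were at least 2 times higher in the progenitors and 633 (7.01%) lower. With cells of the cardiomyocyte gate left out of both sets the counts were 429 and 760, and with the top doublet scores left out 563 and 872. All 40 G2 and M phase genes compared and 34 of 38 S phase genes were higher in the progenitors, with median ratios of 3.71 and 2.67 against 0.954 over all genes. The 10 leading genes were 8 genes of dividing cells (Hist1h1b, Hist1h3c, Ccnd1, Pclaf, Hmgb2, Nusap1, Cenpf and Rrm2) with Pax3 and Rfx4. Hist1h1b, a linker histone of S phase, stood at 1302 against 144 CPM, Ccnd1 at 488 against 70.6 CPM, and Pax3 at 272 against 32.5 CPM, a ratio of 8.36 (7.35 to 9.55). At the other end stood the neuropeptide genes Cartpt, at 0.592 against 629 CPM, and Sst, at 2.74 against 618 CPM, with Crabp1 at 58.5 against 2563 CPM, the neurofilament gene Nefl at 9.92 against 675 CPM and the growth cone protein gene Gap43 at 12 against 490 CPM. Gng3, Stmn3, Nefm, Mapt and Stmn4, all of axons and synapses, completed the 10. Of 27 neuron genes outside the rule, 26 were lower in the progenitors, and the gate itself was set on neuron genes.

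Most dorsal genes were higher in the progenitors, and Hox genes were higher in the neurons in part. Of 10 dorsal genes 7 were higher in the progenitors and 0 lower, while of 15 genes of Hox paralogs 5 to 9, 0 were higher and 7 lower (median ratio 0.557). Hoxa9 stood at 91.5 CPM in the progenitors and 418 CPM in the neuron gate, a ratio of 0.219 (0.205 to 0.234), and Hoxb9 at 175 and 463 CPM. Hoxa2 was higher in the progenitors, at 46.8 against 16.3 CPM, and Hoxc5 stood at 21.7 against 10.8 CPM. Hoxc10 and Hoxc6 differed little, at 189 and 174 CPM and at 143 and 139 CPM. Of 8 genes of the Notch target list, 5 were higher in the progenitors, with Hes1 at 74.3 against 25.4 CPM and with Id1 and Id3 also among the 5. Of 12 proneural genes, 2 were higher in the progenitors, Gadd45g among them, and 5 lower, namely Neurod1, Neurod4, Nhlh1, Nhlh2 and Insm1, and Neurog2 was near-equal at 30.6 and 28.9 CPM. The interneuron factors Pax2 and Pax8 were lower in the progenitors, at 0.814 and 0.888 CPM against 54.1 and 29.9 CPM, and En1 stood at 28.3 against 75.6 CPM.

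The progenitors differed among themselves in genes of dorsoventral position. Splits by 1 gene were chosen after the values had been seen and are descriptions. Wnt1 was found in 125 progenitors and not in 531, at median depths of 17590 and 13967 UMIs. In the cells with Wnt1, Msx1 stood at 282 against 41.1 CPM (ratio 6.86, 6.1 to 7.72), Rspo1, an amplifier of Wnt signals, at 117 against 6.55 CPM, and Lmx1a at 17.7 against 1.12 CPM. The collagen gene Col14a1 stood at 468 against 66.9 CPM, and Fgf15 at 68.8 against 19.5 CPM. Other genes were lower there. Gsx1 stood at 1.06 against 16.1 CPM, Dll1 at 24.8 against 76.4 CPM and Sox3 at 19.5 against 67.2 CPM. Olig3 and Neurog1 were higher, at 18.1 against 8.6 CPM (ratio 2.1, 1.46 to 2.99) and 30.9 against 19.5 CPM. Ptf1a was found in 0 of the 125 cells (upper limit 2.91%) and in 11.5% of the others, where it stood at 12.7 CPM, at least 11.95-fold higher against 3 UMIs over the 125 cells. Pax3 and Msx3 changed less in level, at 181 against 295 CPM and 162 against 215 CPM. By share of cells, Msx3 was found in 48.8% against 76.8% and Pax3 in 76% against 88.9%. Without the 43 cells of the cardiomyocyte gate the split was of the same kind, with Msx1 at 325 against 44.3 CPM.

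Gsx1 was found in 109 progenitors and not in 547, at median depths of 18970 and 14262 UMIs. In the cells with it Msx1 stood at 13.2 against 112 CPM, Rspo1 at 1.04 against 37.4 CPM and Wnt1 at 3.81 against 30.2 CPM, the reverse of the cells with Wnt1. Dll1 stood at 102 against 55.8 CPM, Ptf1a at 17 against 8.19 CPM and Prdm13 at 37.8 against 25 CPM. Mki67 stood at 321 against 202 CPM, so the cells with Gsx1 were not low in transcripts of division. Olig3 was found in 63 cells, in which Neurog1 stood at 111 against 12.2 CPM. Neurog1 was found in 46% of these cells (33.4 to 59.1%) against 7.76% of the others. Ptf1a was found in 0 of the 63 (upper limit 5.69%) against 10.3% of the others. Of the 109 cells with Gsx1, 1 held Neurog1 and 3 held Wnt1, against 13.5% and 22.3% of the 547 cells without Gsx1.

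Cells with Neurog2 held more of some neuronal transcripts than those without, though not of Rtn1, at 76.6 against 88.1 CPM. The 86 cells with Neurog2, at a median of 13656 UMIs against 15081.5 UMIs in the others, held Tubb3 at 424 against 60.5 CPM, Nhlh2 at 51.9 against 1.98 CPM, Gadd45g at 415 against 79.6 CPM and Hes6 at 521 against 173 CPM. The cycle inhibitor Cdkn1c stood at 2462 against 953 CPM in them (ratio 2.58, 2.49 to 2.67), and Dll3 at 57.8 against 8.42 CPM. Mki67 was close in level, at 255 against 223 CPM, but was found in 45.3% against 57.7% of cells. Top2a stood at 411 against 465 CPM and was found in 47.7% against 61.4% of cells. Ptf1a, at 46 against 4.29 CPM, and Olig3, at 30.5 against 7.39 CPM, were both higher in these cells. Wnt1 stood at 3.21 against 28 CPM and Rspo1 at 1.07 against 34.2 CPM.

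The 164 progenitors with no Hes5 UMI held genes of both ends. They were shallower, at a median of 11957 against 15641.5 UMIs. The midline genes Msx1 and Lmx1a stood at 317 and 20 CPM in them, against 33.5 and 0.651 CPM in the 492 cells with Hes5, and Neurog2 and Nhlh2 stood at 71.9 and 31.2 CPM against 20.1 and 3.16 CPM. Genes of division were lower, with Top2a at 217 against 519 CPM and Ccnd1 at 251 against 549 CPM, and Cdkn1c stood at 1998 against 948 CPM. Nrarp, a Notch feedback gene, was also lower, at 18.5 against 52.7 CPM. Hes1, of the Notch target list, went the other way, at 116 against 63.7 CPM.

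**Figure D4:**
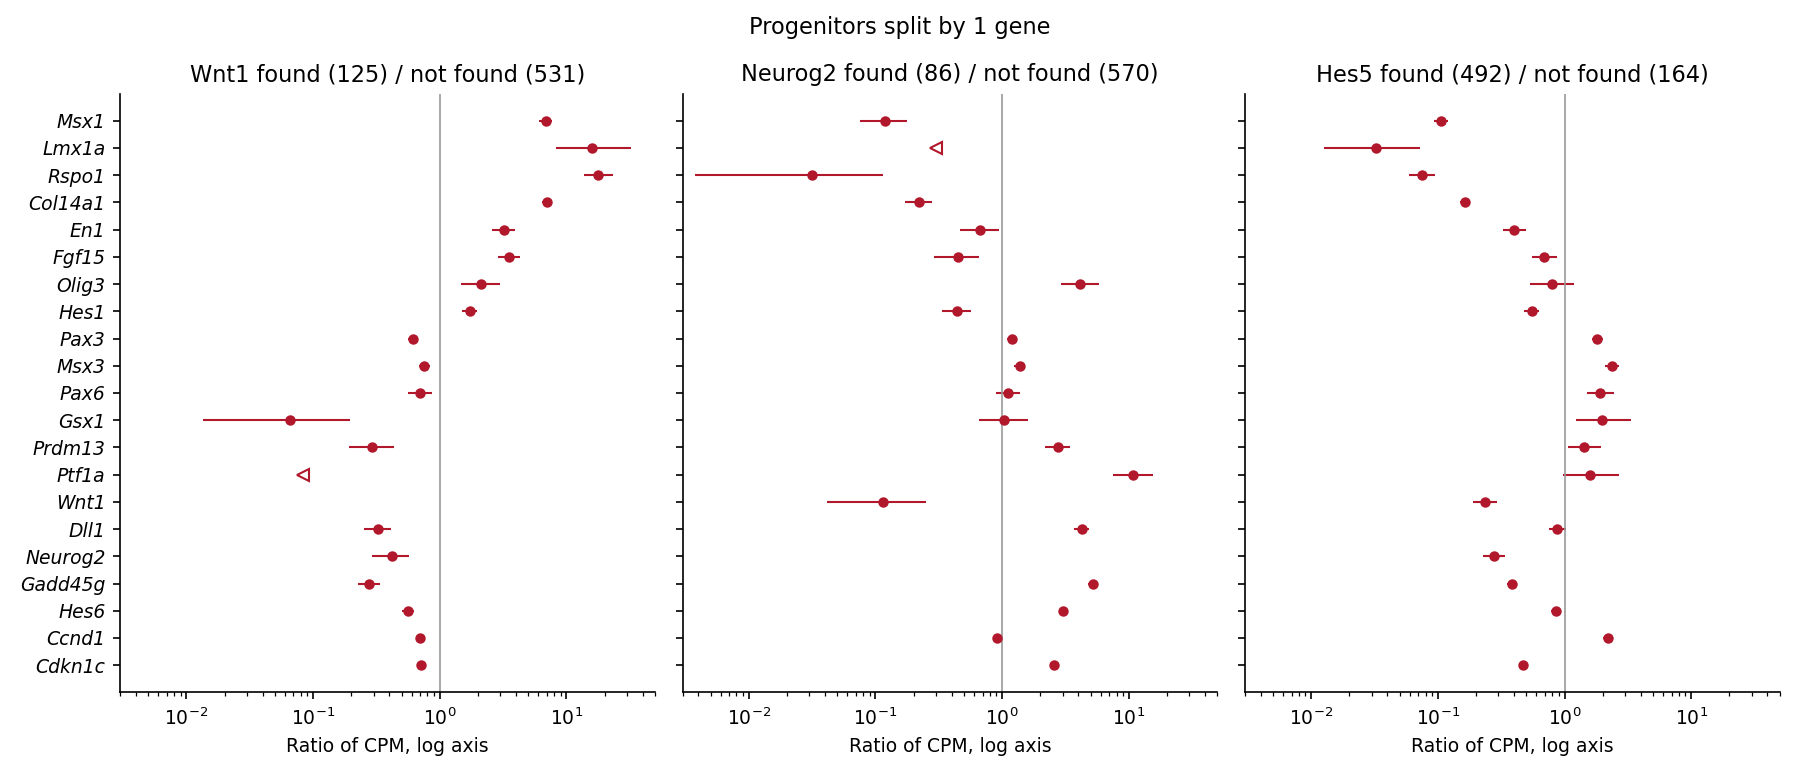
Ratio of CPM (log axis) between progenitors in which Wnt1 (125 cells), Neurog2 (86) or Hes5 (492) was found and those in which it was not, for 21 genes, with exact 95% intervals as bars and a grey line at 1; open triangles mark genes with no UMI in the first set, at the bound that 3 UMIs set. Msx1, Lmx1a and Rspo1 lie to the right with Wnt1 and to the left with Neurog2 and Hes5, while Dll1, Gadd45g and Hes6 lie to the left with Wnt1 and to the right with Neurog2.

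Applied to the earlier libraries, the rule was met by 50 of the day 4 cells (0.694%), by 3 cells (0.0405%) a day later, and by 384 day 6 cells, or 6.56% (5.94 to 7.23%). The day 6 cells, at a median of 37177 UMIs, were set beside those of day 11. Day, library and software version (Cell Ranger 3.1.0 in the header of day 6 and 6.0.1 in that of day 11) changed together and cannot be told apart, and the ratio in all other cells of the 2 days is given beside that of the progenitors. Of 8455 genes compared, 352 (4.16%) were at least 2 times higher at day 11 and 130 (1.54%) lower. Dorsal and proneural genes were higher at day 11. Pax3 stood at 272 against 65 CPM, a ratio of 4.18 (3.91 to 4.48), while in the other cells its ratio was 0.696, and Sox9 had ratios of 4.18 and 0.716. Msx3 stood at 204 against 21.3 CPM and Neurog2 at 30.6 against 5.76 CPM, and both were also higher at day 11 in the other cells. Of 10 dorsal genes 6 were higher and 1 lower, and of 8 proneural genes 4 were higher. Sox3 was near-equal, at 57.3 and 53.7 CPM.

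Gliogenic factors were higher at day 11 and genes of the tail bud lower. Of 18 glial and gliogenic genes compared, 10 were higher and 0 lower, with Nfia at 90.4 against 7.7 CPM and Nfib at 130 against 11.2 CPM. Both were also higher in the other cells, by 5.22 and 4.93 times, against 11.7 times each in the progenitors. Of 6 genes of Hox paralogs 10 to 13 and Cdx compared, 0 were higher and 4 lower. Cdx2, a factor of the growing tail, stood at 0.148 CPM at day 11 against 73.2 CPM at day 6, Hoxd10 at 0.222 against 13.9 CPM, and Hoxb1, which the tail bud and hindbrain share, at 0.296 against 35.5 CPM. Fgf8 and Fgf17, ligands of the tail bud, stood at 0.296 and 0.148 CPM against 46.7 and 38.9 CPM, and Lin28a, an RNA binding protein of early embryonic cells, at 0.518 against 49.4 CPM. These genes were lower at day 11 in the other cells as well. Hoxc9 and Hoxc10 were found at both days, at 188 and 189 CPM against 115 and 147 CPM. Of 41 G2 and M phase genes, 0 were higher and 1 lower (median ratio 0.984), and of 38 S phase genes 0 were higher and 1 lower. Lists of other cells and responses were also higher at day 11 in the cells that met the rule, with 4 of 6 mesenchyme genes, 3 of 4 blood genes (1 lower), 5 of 8 endoderm genes (3 lower), 4 of 4 interferon response genes and 5 of 12 genes of hypoxia and stress. Of the 12 cardiomyocyte genes 11 were higher, and Myl7 stood at 1565 CPM with them, 49.2 CPM without them and 414 CPM at day 6; the part of the 43 cells in the other counts was not tested.

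**Figure D5:**
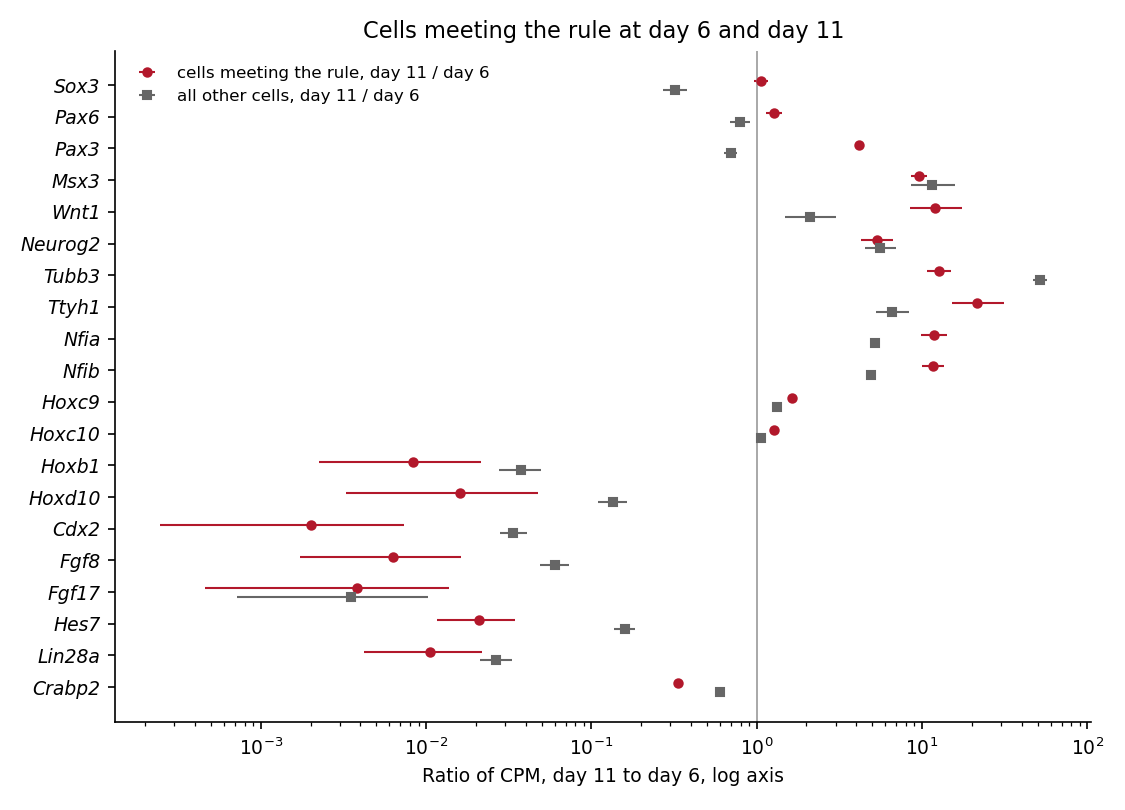
Ratio of CPM at day 11 to CPM at day 6 (log axis) in the cells that met the rule (red circles, 656 and 384 cells) and in all other cells of those days (grey squares), with exact 95% intervals as bars and a grey line at 1, for 20 genes, 1 library a day. Pax3 lies at 4.18 in the cells that met the rule and 0.696 in the others, Msx3 at 9.58 and 11.5, and Cdx2, Fgf8 and Hoxd10 lie far below 1 in both.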

How the data were processed

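Single-cell 3' RNA libraries of Zx1 gastruloids at days 4, 5, 6 and 11 were analysed, 1 library a day. The authors deposited whole-number UMI counts per gene and called cell, with no normalization, and these deposited counts were used as they were. The submitters' processing notes name Cell Ranger 3.1.0 and mm10, while the header of the day 11 matrix names version 6.0.1. The day 11 library held 149169498 UMIs in 9584 barcodes, at a median of 11318 UMIs. Symbols come from the feature lists, gene positions from GENCODE vM21, and start regions from RefSeq GRCm38.p6.

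CPM is the summed UMIs of a gene over the summed UMIs of a set of cells. A gene was compared at 10 CPM or more in either set and called at a ratio of CPM plus 10 of at least 2; other ratios are of CPM. The 9 rule genes were left out of all such counts. Of a symbol held by 2 IDs, the ID with more UMIs was used. Shares of cells were computed after thinning each cell once to 5000 UMIs, which left out 16 progenitors and 324 other cells. Doublets were scored with Scrublet in scanpy 1.11.5, were not removed, and the top 8% were left out in an alternative. Intervals are Clopper-Pearson, Poisson or conditional binomial at 95%, and a count of 0 allows 3. They cover counting error only, since transcripts of 1 cell are not independent. Ratios were tested on simulated data. The genes named are the rule genes, genes of 36 lists (557 genes) and the leading genes by ratio at 100 CPM or more (15 in each direction against the other cells, 10 against the neuron gate), with mitochondrial, ribosomal and rule genes left out; Col14a1 and the genes used to split the progenitors were chosen after their values were seen. Cells and lists were chosen with earlier results of these data known. Python 3.11.15, numpy 2.4.6, scipy 1.17.1 and pandas 2.3.3 were used. Some genes are not reported here.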

Additional observations from a re-analysis of the deposited data

How the results depend on the processing

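No paired analysis was possible because there was 1 library a day. Of 73 values computed under 15 settings for 7 results, 49 were within 1.5 times the count or within the interval of the share and 24 were not. In the order higher and lower against the other cells, then higher and lower against the neuron gate, the counts of genes were 603, 972, 628 and 1076 at a pseudocount of 1, 219, 248, 216 and 340 for genes at 50 CPM or more, and 44, 17, 41 and 131 at a fold of 4, where more genes were higher than lower against the other cells, the reverse of the 343 and 481 at a fold of 2. These follow from the settings, which change which genes are compared or called. With the top 8% of doublet scores left out, 768 genes were lower than in the other cells, 563 were higher than in the neuron gate, and the Hox share was 98.7%. With the mean of per-cell CPM, 556 genes were higher than in the neuron gate; the cause was not tested. With Sox2 at 2 or more UMIs, 6.83% of day 11 cells met the rule. The Hox and the G2 and M phase shares were 91.6% and 75.6% thinned to 3000 UMIs, 99.2% and 94.4% thinned to 10000 UMIs, and 98.9% and 93.1% at 1 or more UMIs. Leaving out the 43 progenitors in the cardiomyocyte gate, a setting chosen after seeing the data, gave a Hox share of 99%. Depth limits genes with few UMIs: 3 UMIs equal 0.222 CPM over all progenitors.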
